A study of Homo sapiens with 18 samples.

Results

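The genes described here were 10 genes of the COPI coat and of the ARF cycle that controls it, read as their rows of a table of 25435 gene rows counted in 18 RNA-Seq libraries. They were taken by name. COPA, COPB1, COPB2, ARCN1, COPE and COPZ1 encode subunits of coatomer, ARF1 and ARF4 encode small GTPases, and ARFGAP1 and ARFGAP3 encode GTPase-activating proteins for ARF. All 10 passed the filter on low counts in every comparison, with 1128 to 23931 reads per gene and library. The libraries came from HEK293doxERN2 cells, a HEK293 line of human embryonic kidney origin in which doxycycline switches on a Flag-tagged human ERN2 transgene. ERN2 (IRE1β) is an endoplasmic reticulum (ER) stress sensor that splices XBP1 mRNA and that is normally restricted to mucosal epithelium, so the design placed it in a cell type that is not its own. Over 24 hours the cells were left without doxycycline or induced with 10 or with 100 ng/mL of it. For 3 hours they were then given either DMSO vehicle or 200 nM thapsigargin, which empties ER calcium by blocking the calcium pump. Each of the 6 groups had 3 libraries. Nothing in the labels said whether replicates were separate cultures, so p-values measured the spread between these libraries, which may be technical.

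COPI vesicles carry proteins from the Golgi back to the ER and between Golgi cisternae. An exchange factor loads ARF with GTP, ARF-GTP recruits coatomer from the cytosol to the membrane, and an ARF GAP ends the cycle by triggering GTP hydrolysis. Chaperones that escape the ER, such as HSPA5 (BiP), are returned by this route through the KDEL receptor, and many genes of secretory transport are among the known targets of XBP1.

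The promoters are shown because XBP1 and ATF6, which act downstream of the ER stress sensors, are known to bind elements built on ACGTG or CCACG. RefSeq promoter windows (GRCh38.p14, from 250 bases before to 50 after a start) were matched for 8 of the 10 genes. ARF4 and ARFGAP1 had no entry. Both strands were searched. ACGTG was present in 21.4% of all 35116 windows and CCACG in 38.1%. The hexamer ACGTGG, in which ACGTG and the reverse complement of CCACG overlap, was present in 9.72% of windows and was chosen after the members' windows had been read. The 8 genes had 11 windows, several of which overlap. CCACG was in all 11, and ACGTG was in 8 windows of 7 genes, ARFGAP3 being the exception. ACGTGG was in 7 windows of 6 genes, COPA, COPB1, COPB2, COPZ1, ARCN1 and ARF1, with ARF1 holding it in 1 of its 3 windows. It did not occur in those of COPE and ARFGAP3. CCAAT followed by CCACG at the spacing of the ER stress response element occurred in no member's window, against 0.0769% of all windows. Each match is given below in 30 bases of the gene's own strand, 5′ to 3′, with ACGTGG or its reverse complement CCACGT in capitals.
COPA, chr1:160343226-160343255, minus strand: agagggtcgctgACGTGGaggcgtccgaag
COPB1 distal match, chr11:14500005-14500034, minus strand: aaactagaaaatACGTGGtttcattgctct
COPB1 proximal match, chr11:14499842-14499871, minus strand: ccccacccccttCCACGTcagccaaggact
COPB2 distal match, chr3:139389826-139389855, minus strand: agctcagcggcaCCACGTcacggcccttag
COPB2 middle match, chr3:139389747-139389776, minus strand: cggtctggaaggCCACGTtgcctaggaaac
COPB2 match after the start, chr3:139389633-139389662, minus strand: ctcccggaagttCCACGTcagtcagtctga
COPZ1, chr12:54325125-54325154, plus strand: tcttttgcggctCCACGTcggcaccagctg
ARCN1, chr11:118572379-118572408, plus strand: ttccggttgaagACGTGGcttggggccgcc
ARF1, chr1:228082682-228082711, plus strand: ccggaggcgctgACGTGGccgccgtcagag

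Counted from the start as 0, the hexamer began at -14 in ARF1 and -18 in ARCN1, and at 6 and 7, inside the transcript, in COPZ1 and COPA. In COPB1 it began at -211 and -48, and in COPB2 at -163, -84 and 30. COPB2 therefore carried the most copies among the members. Its stretch from -190 to -52 (chr3:139389732-139389870, minus strand) holds the distal and middle copies and is printed whole with both in capitals.
COPB2 upstream stretch: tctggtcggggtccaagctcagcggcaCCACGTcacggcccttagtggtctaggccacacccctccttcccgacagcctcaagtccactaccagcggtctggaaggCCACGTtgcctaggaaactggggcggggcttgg
A match describes letters in a window and was not a measurement of binding.

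Library totals ran from 14876416 to 24652240 counts. ERN2 was at 7.79 ± 1.27 CPM (read counts scaled to the size of the library, SD, n = 3) in uninduced vehicle cells, 35.2 ± 18.1 after 10 ng/mL and 270.0 ± 34.1 after 100, in the order of the doxycycline labels. HSPA5 rose with thapsigargin by a log2 fold change of 2.87 ± 0.17 (SE) in uninduced cells, 2.20 ± 0.18 in cells given 10 ng/mL and 1.20 ± 0.11 in those given 100, with adjusted p of 2.33e-07, 1.59e-04 and 0.00141 by edgeR's quasi-likelihood test. The extraction protocol speaks of colon crypt cells, but the kidney line's VIM, NEFL and NEFM were read in every library (312 reads or more, with PAX2 at 17 to 89), and of 10 colon epithelial markers 9 had 0 to 9 reads. CDX2 had 56 to 161. The libraries differed in the level of GC-rich genes relative to GC-poor genes, and whether preparation or expression lay behind it was not tested. The median log2 level of the GC-richest quartile of genes, relative to the GC-poorest quartile and to the mean of uninduced vehicle cells, ran from -0.76 to 0.82 over the 18 libraries, and this is given below beside the results it moved with.

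The 10 genes together took a larger share of all counted reads after ERN2 induction. With vehicle they held 0.230% to 0.237% of counts in the uninduced libraries, 0.279% to 0.292% after 10 ng/mL and 0.303% to 0.323% after 100, and these groups did not overlap. With thapsigargin the shares were 0.227%, 0.241% and 0.308% in uninduced cells, 0.283%, 0.286% and 0.341% after 10 ng/mL, and 0.285%, 0.299% and 0.309% after 100. The thapsigargin groups overlapped. Replicate 2 of the uninduced group was as high as the induced libraries, and the doses of 10 and 100 ng/mL shared their range. ARF1, the most abundant of the 10, weighed most in these shares, at 589 ± 28 CPM in uninduced vehicle cells and 902 ± 89 after 10 ng/mL (SD, n = 3). The coat subunits alone summed to 1419, 1538 and 1429 CPM in uninduced vehicle libraries. After 10 ng/mL with vehicle they summed to 1675, 1484 and 1554, which overlapped, and after 100 to 1892, 1824 and 1807. From bulk RNA, more cells with a transcript and more transcript per cell cannot be told apart.

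Per kilobase of the longest coding transcript (GENCODE 29), the coat subunits lay close to each other in uninduced vehicle cells. COPA stood at 67.1 ± 3.4 CPM per kb, COPB2 at 69.7 ± 4.4, COPB1 at 70.5 ± 10.5, COPZ1 at 77.6 ± 2.3, COPE at 94.1 ± 10.2 and ARCN1 at 100.7 ± 9.1 (SD, n = 3). ARF1 was the most abundant gene on that scale at 293 ± 14, whereas ARF4 stood at 54.7 ± 1.8, ARFGAP1 at 38.2 ± 3.1 and ARFGAP3 at 25.1 ± 2.2. At 100 ng/mL with vehicle, the subunits were spread more widely, from 65.0 ± 9.9 for COPB1 to 159 ± 44 for COPE.

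**Figure D1:**
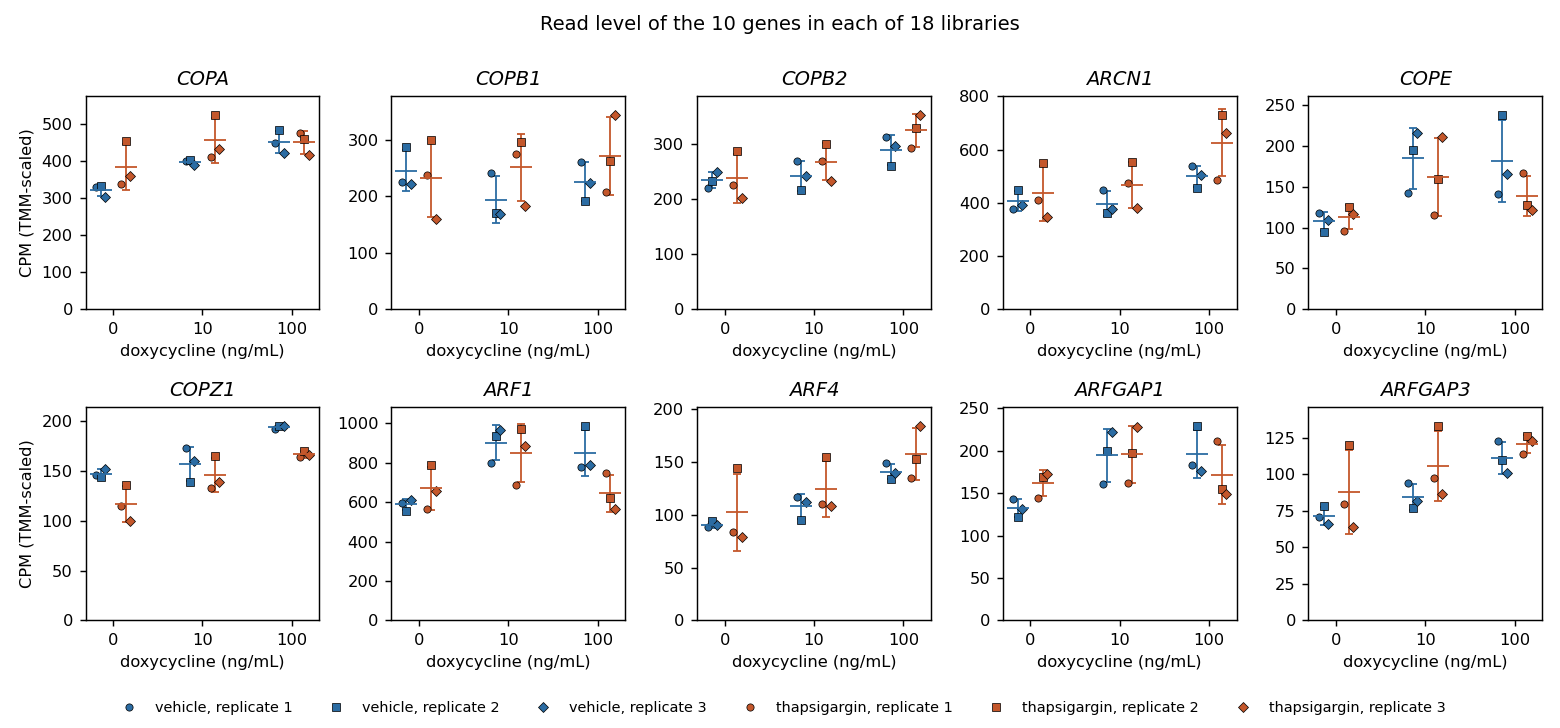
Level of each of the 10 genes in CPM scaled by TMM (vertical axes, from 0) against doxycycline dose, with vehicle in blue and thapsigargin in orange. Symbols are the libraries of replicates 1 to 3 and bars are the group mean ± SD. In vehicle cells ARF4 and COPA were highest at 100 ng/mL and COPB1 overlapped across doses, and replicate 2 of the uninduced thapsigargin group was above the other replicates for ARF4 (144 CPM against 83.7 and 79.2).

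The first question was whether ERN2 induction without thapsigargin changed COPI genes. Induced cells also differed from uninduced cells in doxycycline itself. No group received doxycycline without carrying the transgene, so the effects of ERN2 and of the drug cannot be told apart. Between 100 and 0 ng/mL with vehicle, ARF4, ARFGAP3 and COPA rose and none of the 10 genes fell at an adjusted p below 0.01 by edgeR's quasi-likelihood test. Among all 14444 genes tested, 0.838% rose and 7.49% fell. The log2 fold change was above 0 for 9 of the 10 genes, with a median of 0.47 against -0.01 over all genes tested. A gene list that the study drew from calls in this same comparison includes COPA, COPE, COPZ1, ARFGAP1, ARFGAP3, ARF1 and ARF4, so these counts are not independent evidence of direction. Here and in what follows, comparisons that name the same group share its 3 libraries.

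Of the coat subunits, COPA, which forms the outer layer of the coat with COPB2 and binds retrieval signals of cargo, was at 331, 331 and 303 CPM in uninduced cells and at 449, 482 and 422 at 100 ng/mL. The groups were well apart. Its log2 fold change was 0.45 ± 0.10 (SE), a 1.36-fold rise, with an adjusted p of 0.00937 by edgeR's quasi-likelihood test. COPZ1, the small zeta subunit, varied little within either group, at 146, 144 and 152 CPM against 192, 195 and 195. The groups did not overlap, but the change of 0.35 ± 0.09 on the log2 scale was short of the threshold by edgeR's quasi-likelihood test (adjusted p = 0.0249).

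COPE, the epsilon subunit that stabilises COPA in the complex, was at 118, 95.1 and 109 CPM against 141, 238 and 165. Every induced library was above every uninduced one, but replicate 2 lay far above the other induced libraries. The log2 fold change was the largest of the 10 at 0.72 ± 0.17, with an adjusted p of 0.0146 by edgeR's quasi-likelihood test. COPB2, the beta′ subunit, was at 220, 233 and 249 CPM against 312, 260 and 296 (0.26 ± 0.10 on the log2 scale), and ARCN1, the delta subunit of the inner layer, at 378, 448 and 393 against 537, 457 and 505 (0.25 ± 0.11). In both genes the lowest induced library was just above the highest uninduced one, and neither passed the threshold by edgeR's quasi-likelihood test (adjusted p = 0.121 and 0.133). COPB1, the beta subunit, was at 226, 287 and 223 CPM against 262, 193 and 224, so the groups overlapped, and its log2 fold change was -0.16 ± 0.13.

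Among the GTPases, ARF4, which acts at the early Golgi and ER-Golgi intermediate compartment, was at 88.3, 94.0 and 90.1 CPM in uninduced cells and at 149, 134 and 140 at 100 ng/mL. These groups were far apart relative to their spread. The log2 fold change was 0.59 ± 0.10, a 1.51-fold rise, with an adjusted p of 0.00124 by edgeR's quasi-likelihood test. ARF1, the main recruiter of coatomer to the Golgi, was at 594, 558 and 614 CPM against 777, 986 and 791. It was higher in every induced library, with a log2 fold change of 0.49 ± 0.12 and an adjusted p of 0.0125 by edgeR's quasi-likelihood test, above the threshold.

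Of the GTPase-activating proteins, ARFGAP3, which associates with coatomer on early Golgi membranes, was at 71.0, 78.2 and 65.8 CPM against 123, 110 and 101. The groups did not overlap. Its log2 fold change was 0.59 ± 0.12, a 1.51-fold rise, with an adjusted p of 0.00378 by edgeR's quasi-likelihood test. ARFGAP1, which senses membrane curvature, was at 144, 122 and 131 CPM against 184, 229 and 176 and had a log2 fold change of 0.53 ± 0.13 with an adjusted p of 0.0130 by edgeR's quasi-likelihood test.

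The number past the threshold depended on the fit. DESeq2 called 7 of the 10 genes, all higher, where it called 1.95% of all genes higher and 9.48% lower. An adjusted p below 0.05 in edgeR also gave 7, against 3.12% of all genes higher and 11.2% lower. Fitting all 6 groups together gave 0 (0.679% of all genes higher), as did leaving out replicate 1 of the uninduced vehicle group (0.480%), and leaving out replicate 3 of that group left ARF4 alone (0.525%). When each of the 6 libraries was left out in turn, ARF4 stayed past the threshold 5 times, ARFGAP3 3 times and COPA 0 times.

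**Figure D2:**
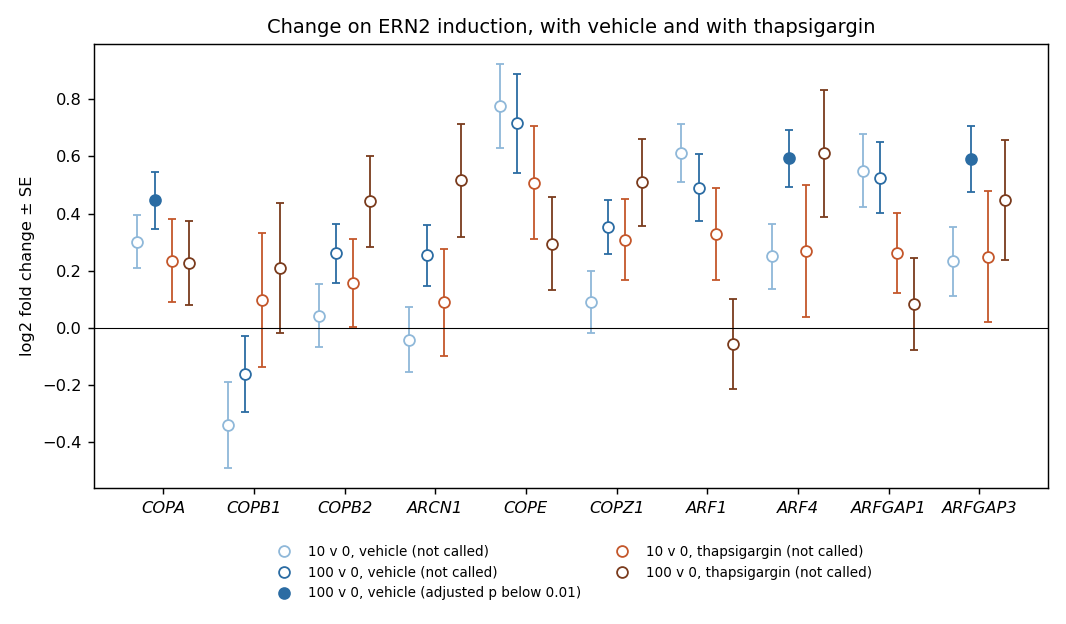
Log2 fold change ± SE of each gene for 10 and 100 against 0 ng/mL doxycycline, with vehicle (blue) and with thapsigargin (orange and brown), where filled circles mark an adjusted p below 0.01. Filled circles are present only for COPA, ARF4 and ARFGAP3 at 100 ng/mL with vehicle, and COPB1 lies below 0 at both doses with vehicle.

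At the lower dose the calls were fewer. Between 10 and 0 ng/mL with vehicle, none of the 10 genes passed the threshold in edgeR (0.138% of 14497 genes rose and 0.0552% fell). Of the members, 6 had an unadjusted p below 0.05, as had 30.5% of all genes. DESeq2 called COPE, ARF1 and ARFGAP1, all higher, where it called 0.738% of all genes higher and 1.89% lower. COPE was at 143, 195 and 216 CPM, above each uninduced library, with a log2 fold change of 0.78 ± 0.15 and an adjusted p of 0.0303 by edgeR's quasi-likelihood test. ARF1 was at 800, 938 and 966 CPM, also above each uninduced library, with a log2 fold change of 0.61 ± 0.10 (adjusted p = 0.0157 by edgeR). ARFGAP1 was at 161, 200 and 222 CPM, with a log2 fold change of 0.55 ± 0.13.

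For these genes the values at 10 ng/mL were close to those at 100 ng/mL. ARF4 and ARFGAP3 had log2 fold changes of 0.25 ± 0.11 and 0.23 ± 0.12 at 10 ng/mL. COPB1 was at 242, 171 and 170 CPM and had a log2 fold change of -0.34 ± 0.15. Its replicate 1 overlapped the uninduced libraries while the others lay below them. Without replicate 1 of the 10 ng/mL group, 4 genes passed the threshold, with COPE, ARF1 and ARFGAP1 higher and COPB1 lower, but without that library 8.05% of all genes were called higher and 10.7% lower.

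In the direct comparison of 100 with 10 ng/mL with vehicle, 0 of the 10 genes passed the threshold in edgeR and 0 in DESeq2, while 4 had an unadjusted p below 0.05, against 16.1% of all genes. Over all genes, 0.0137% rose and 2.43% fell. ARFGAP3 (0.37 ± 0.13), ARF4 (0.36 ± 0.12), ARCN1 (0.31 ± 0.12) and COPZ1 (0.28 ± 0.11) had the largest log2 fold changes. ARF1 (-0.11 ± 0.12), COPE (-0.05 ± 0.19) and ARFGAP1 (-0.01 ± 0.14) were near 0.

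The transcripts of the 10 genes differ in composition. COPE, ARFGAP1 and ARF1 had the highest GC content of the 10 transcripts, at 63.9%, 62.4% and 55.7%, and the other 7 lay between 40.8% (COPB1) and 48.7% (COPA). The GC-rich against GC-poor difference of the libraries was 0.19, 0.76 and 0.82 at 10 ng/mL with vehicle, against 0.19, -0.28 and 0.10 in uninduced vehicle cells and -0.02, 0.71 and 0.18 at 100 ng/mL. Within groups the same genes moved with it. The ratio of COPE to COPB1 reads was 0.592 in replicate 1 at 10 ng/mL and 1.14 and 1.28 in the other replicates, and with thapsigargin at 100 ng/mL it was 0.801, 0.486 and 0.352 where the GC difference was 0.29, -0.48 and -0.76.

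A further fit removed each library's smooth trend on GC content and then on length. At 10 against 0 ng/mL with vehicle, the log2 fold change in that fit was 0.38 ± 0.07 for COPE, 0.40 ± 0.06 for ARF1, 0.48 ± 0.08 for ARF4, 0.38 ± 0.08 for ARFGAP3 and -0.05 ± 0.08 for COPB1. ARF1 and ARF4 passed the threshold in edgeR (adjusted p = 0.00463 and 0.00878), as did 0.352% of all genes higher and 0.435% lower. At 100 against 0 ng/mL with vehicle, 9 of the 10 genes passed it, all higher. Their log2 fold changes ran from 0.33 ± 0.06 for COPZ1 to 0.67 ± 0.07 for ARF4, and COPB1 stood at -0.00 ± 0.07. That fit also called more of all genes (2175 against 1203, with 4.17% higher and 10.9% lower), and it was added after the data had been seen. Because the GC difference was uneven between groups, the fit may also have removed or added differences between groups, which was not tested.

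**Figure D3:**
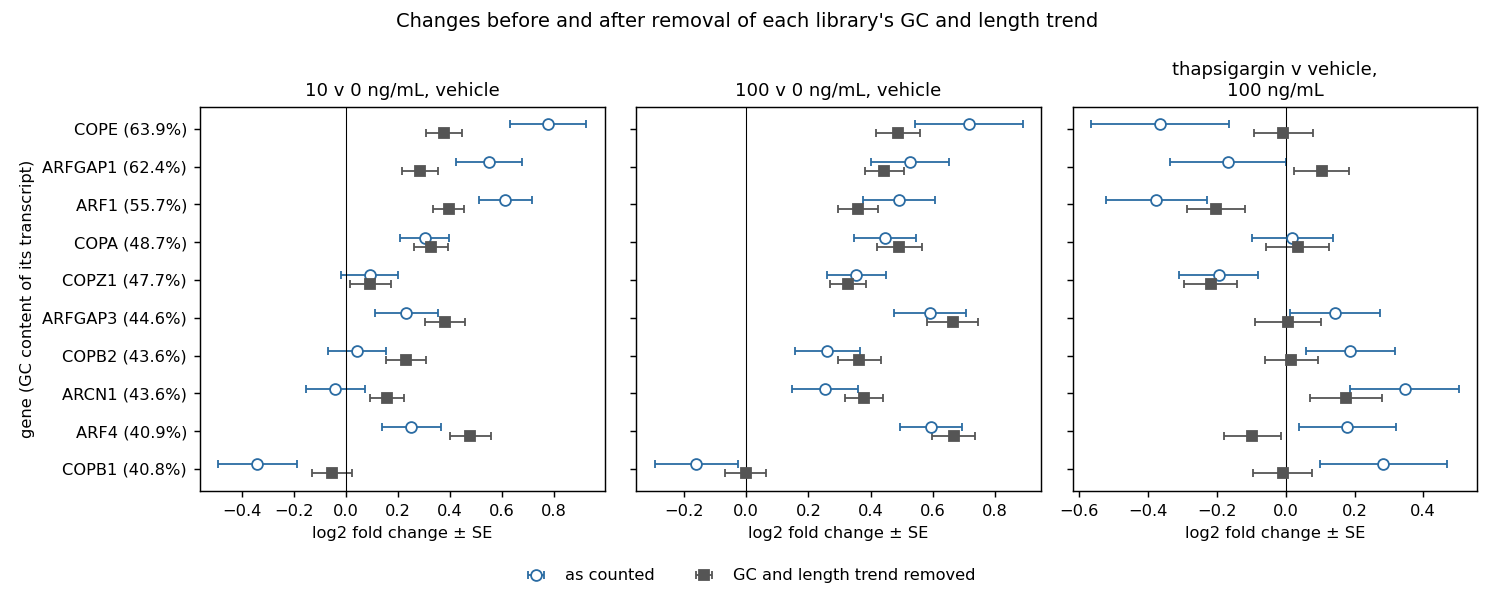
Log2 fold change ± SE of each gene as counted (open blue circles) and after removal of each library's trend on GC content and length (grey squares), with genes ordered by the GC content of their transcript. For 10 against 0 ng/mL with vehicle, COPE moved from 0.78 to 0.38 and COPB1 from -0.34 to -0.05.

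The second question was what acute ER stress did to the same genes. Thapsigargin raised HSPA5 (above) and brought none of the 10 genes past the threshold at any dose. The SE of the 10 genes ran from 0.11 to 0.22 on the log2 scale over the doses, so modest changes may have been missed. The missed threshold does not show that the genes were unresponsive. Without doxycycline, 0 of the 10 genes passed the threshold in edgeR and 0 in DESeq2, whereas 6.45% of 14397 genes rose and 4.74% fell. Of the members, 3 had an unadjusted p below 0.05, and 35.9% of all genes did. The members' median log2 fold change was 0.15, against -0.01 over all genes, and without replicate 2 of the thapsigargin group it was -0.05, with 4 of the 10 genes above 0 in place of 8. ARFGAP1 was at 144, 169 and 172 CPM with thapsigargin, just above its vehicle libraries, with a log2 fold change of 0.30 ± 0.11 and an adjusted p of 0.0641 by edgeR's quasi-likelihood test. COPZ1 moved the other way, at 115, 136 and 99.4 CPM, below each vehicle library, with a log2 fold change of -0.33 ± 0.12 and an adjusted p of 0.0664 by edgeR's quasi-likelihood test. COPA was at 337, 453 and 359 CPM, above each vehicle library (0.26 ± 0.12).

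Replicate 2 of the uninduced thapsigargin group was the highest of its group for 9 of the 10 genes. For ARF4 the group was at 83.7, 144 and 79.2 CPM and for ARFGAP3 at 80.1, 120 and 64.2, so that replicates 1 and 3 of ARF4 were below every vehicle library while replicate 2 was above all of them. Without replicate 2, the log2 fold change of ARF4 was -0.15 in place of 0.19. No direction can therefore be given for ARF4 under thapsigargin alone.

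At 10 ng/mL, 0 of the 10 genes passed the threshold for thapsigargin against vehicle in edgeR, 0 in DESeq2, and 0 had an unadjusted p below 0.05, against 24.7% of all genes (1.16% of 14607 genes rose and 0.294% fell). The log2 fold changes ran from -0.20 ± 0.22 for COPE to 0.37 ± 0.19 for COPB1. At 100 ng/mL again 0 passed in edgeR and 0 in DESeq2, and ARF1 had the only unadjusted p below 0.05, against 27.0% of all genes (0.180% of 14427 genes rose and 0.0208% fell, 26 against 3 genes, and with library totals in place of TMM 28 against 23). ARF1 was at 750, 621 and 564 CPM with thapsigargin and at 777, 986 and 791 with vehicle, so every thapsigargin library was lower. Its log2 fold change was -0.38 ± 0.15, with an adjusted p of 0.143 by edgeR's quasi-likelihood test, and without replicate 1 of the thapsigargin group it passed the threshold at -0.52, where 9.78% of all genes were called higher and 7.84% lower. COPZ1 was at 164, 170 and 166 CPM against 192, 195 and 195, lower in every library (-0.20 ± 0.11). COPE, at 167, 128 and 121 CPM against 141, 238 and 165, overlapped, and its log2 fold change of -0.37 ± 0.20 was -0.01 ± 0.09 with the GC and length trend removed, while that of ARF1 was -0.20 ± 0.08.

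**Figure D4:**
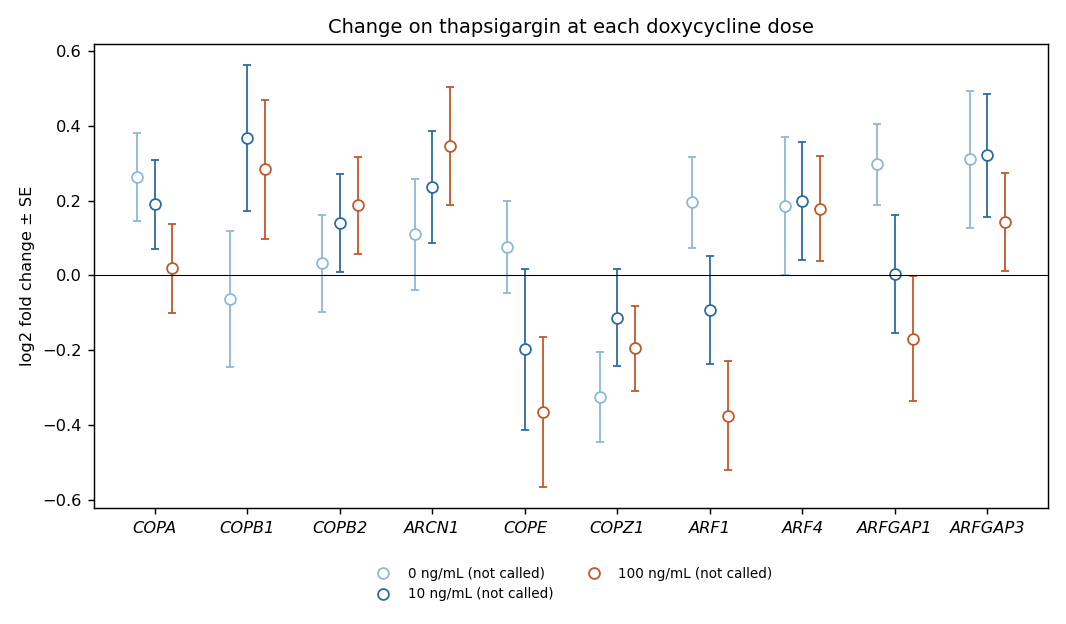
Log2 fold change ± SE of each gene for thapsigargin against vehicle at 0, 10 and 100 ng/mL doxycycline, where open circles mark values that did not pass an adjusted p of 0.01. No gene was called at any dose, and the values of ARF1 were 0.20, -0.09 and -0.38.

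Whether the thapsigargin response differed between induced and uninduced cells was tested as an interaction. At 10 ng/mL, 0 of the 10 genes passed the threshold in edgeR, 0 in DESeq2 and 0 at an unadjusted p below 0.05. Over all 14857 genes, 0.00% were called in each direction in edgeR, 664 (4.47%) had an unadjusted p below 0.05, and DESeq2 called 3. At 100 ng/mL, 0 of the 10 genes passed in edgeR and 0 in DESeq2, and 1 had an unadjusted p below 0.05, against 24.7% of all genes (0.00677% of 14768 genes had a higher and 0.0339% a lower response). The SE of the 10 genes ran from 0.17 to 0.31 on the log2 scale for both interactions, so that modest differences in response were not detectable, and the missed threshold does not show that the responses were alike. The gene with the lowest p at 100 ng/mL was ARF1, for which the response was lower at 100 ng/mL than without doxycycline by -0.49 ± 0.20 on the log2 scale, with an adjusted p of 0.147 by edgeR's quasi-likelihood test. ARFGAP1 and COPE, which with ARF1 had the highest GC content, stood at -0.38 ± 0.20 and -0.36 ± 0.25. Of the 10 genes, 5 were above 0. The GC difference at 100 ng/mL was 0.29, -0.48 and -0.76 with thapsigargin and -0.02, 0.71 and 0.18 with vehicle. The part of composition in these values was not tested. HSPA5, for comparison, had an interaction of -1.58 ± 0.22 with an adjusted p of 0.00897 by edgeR's quasi-likelihood test. Between 100 and 0 ng/mL, HSPA5 changed by 0.84 ± 0.10 with vehicle and by -0.80 ± 0.18 with thapsigargin, so its interaction held a higher vehicle level as well as a lower thapsigargin level. With library totals in place of TMM, the median over all genes for the interaction at 100 ng/mL moved from 0.04 to -0.14, and the value of ARF1 from -0.49 to -0.65.

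The third question was whether induction changed the genes when all cells had received thapsigargin. At 10 against 0 ng/mL, the log2 fold change was above 0 for 10 of the 10 genes, with a median of 0.26 against -0.003 over all 14509 genes, but 0 passed the threshold in edgeR, 0 in DESeq2 and 1 (COPE) had an unadjusted p below 0.05. The median ran from 0.11 without replicate 2 of the 10 ng/mL thapsigargin group to 0.41 without replicate 2 of the uninduced one. It was 0.17 and 0.16 without replicates 1 and 3 of the uninduced group, and the number above 0 fell to 8 without replicate 3 of that group or replicate 2 of the 10 ng/mL group. Over all genes, 0.00% were called in each direction in edgeR, 612 (4.22%) had an unadjusted p below 0.05, and DESeq2 called 39. ERN2 itself went from 12.2 ± 1.9 to 65.8 ± 41.0 CPM (SD, n = 3), a log2 fold change of 2.42 ± 0.38 (SE). It was not called either (adjusted p = 0.292 by edgeR's quasi-likelihood test). In this comparison same-numbered replicates deviated together, with correlations of 0.40, 0.34 and 0.47, so the numbers were taken to pair the samples. That pairing was chosen from these data, not from the labels, so the blocked fit below is exploratory. Replicate 3 had the highest GC-rich against GC-poor difference in both groups, 0.44 without doxycycline and 0.61 at 10 ng/mL. The part of composition in the correlations was not tested. ARF1 was higher in each pair, from 566 to 687, from 788 to 973 and from 656 to 885 CPM. COPE went from 96.1 to 115, from 125 to 159 and from 117 to 210.5.

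With the replicate as a block, edgeR called 6 of the 10 genes, all higher, against 1.36% of all genes higher and 2.53% lower. ARF1 had the smallest adjusted p (0.33 ± 0.05 on the log2 scale, adjusted p = 1.24e-04 by edgeR with the block), followed by COPE (0.48 ± 0.08, 6.39e-04), COPZ1 (0.31 ± 0.06, 0.00251), COPA (0.24 ± 0.05, 0.00294), ARF4 (0.30 ± 0.07, 0.00725) and ARFGAP1 (0.25 ± 0.06, 0.00813). ARFGAP3 (0.27 ± 0.07) missed the threshold, as did COPB2, ARCN1 and COPB1. With the GC and length trend removed in the same blocked fit, 5 passed, namely COPA, COPZ1, ARF1, ARF4 and ARFGAP3, all higher, against 0.882% of all genes higher and 1.68% lower.

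At 100 against 0 ng/mL with thapsigargin, 0 of the 10 genes passed the threshold in edgeR and 0 in DESeq2, 4 had an unadjusted p below 0.05, against 35.6% of all genes, and 9 had a log2 fold change above 0 (1.53% of 14358 genes rose and 9.00% fell). The median was 0.37, against 0.04 over all genes. COPZ1 was at 164, 170 and 166 CPM against 115, 136 and 99.4 without doxycycline. The groups did not overlap, and the log2 fold change was 0.51 ± 0.15 with an adjusted p of 0.0332 by edgeR's quasi-likelihood test. ARF4 was at 135, 153 and 184 CPM against 83.7, 144 and 79.2, overlapping through replicate 2 of the uninduced group, with a log2 fold change of 0.61 ± 0.22. ARF1, which was higher in every induced library under vehicle, was at 750, 621 and 564 CPM against 566, 788 and 656 (-0.06 ± 0.16).

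Leaving out replicate 1 of the 100 ng/mL thapsigargin group brought COPB2, COPZ1, ARCN1 and ARF4 past the threshold, all higher. In that fit 13.5% of all genes were called higher and 13.7% lower. Replicate 1 had a GC-rich against GC-poor difference of 0.29, whereas the replicates that remained, at -0.48 and -0.76, were the lowest of the 18 libraries. The called genes had a GC content of 40.9% to 47.7%, and the part of composition in these calls was not tested. Leaving out replicate 2 of the uninduced thapsigargin group brought ARF4 past it alone, against 0.461% of all genes higher.

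Over the 6 groups, ARF4 spanned the widest range, 1.73-fold from 90.8 ± 2.9 CPM in uninduced vehicle cells to 157 ± 25 with thapsigargin at 100 ng/mL. Its order from high to low was thapsigargin at 100 ng/mL, vehicle at 100, thapsigargin at 10, vehicle at 10, thapsigargin without and vehicle without doxycycline, and the libraries of each pair of neighbours overlapped. COPB2 had the narrowest range, 1.39-fold, and its neighbours in the order overlapped too. Uninduced vehicle cells had the lowest mean for COPA, COPB2, COPE, ARF1, ARF4, ARFGAP1 and ARFGAP3. The exceptions were COPZ1, lowest in uninduced thapsigargin cells, and COPB1 and ARCN1, lowest at 10 ng/mL with vehicle. Uninduced vehicle libraries lay apart from the next group for COPA and ARFGAP1 and overlapped it for COPB2, COPE, ARF1, ARF4 and ARFGAP3. The share of all genes with their lowest mean in that group was not counted.

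Among 15023 genes, those whose pattern over the 18 libraries lay nearest to that of ARF4 were MORF4L2, PGM3 and ARFGAP3, with root mean square differences of 0.112, 0.112 and 0.120 in log2 CPM relative to uninduced vehicle cells. Within the 10 genes the nearest pairs were COPB2 with ARCN1 (0.119), ARF4 with ARFGAP3 (0.120) and ARF1 with ARFGAP1 (0.147). These nearest pairs also had similar GC content, 43.6% and 43.6%, 40.9% and 44.6%, and 55.7% and 62.4%, and the part of composition in the likeness was not tested.

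Other genes of the same cycle were read from a list of 17. COPZ2 had 0 to 12 reads per library and was not tested, which left 16. With vehicle, COPG1, the gamma subunit of coatomer, rose from 100.3 ± 7.4 CPM to 173 ± 13 at 10 ng/mL and 189 ± 30 at 100 ng/mL. Its log2 fold changes were 0.78 ± 0.11 and 0.87 ± 0.13, with adjusted p of 0.00578 and 4.44e-04 by edgeR's quasi-likelihood test. It was the only one of the 16 to pass the threshold in either comparison with 0 ng/mL, and its paralog COPG2 stood at 26.1 ± 1.0 and 26.1 ± 2.5 CPM at 0 and 100 ng/mL. The other ARF GTPases, ARF3, ARF5 and ARF6, had log2 fold changes of 0.16 ± 0.10, 0.24 ± 0.14 and -0.07 ± 0.11 at 100 ng/mL. When all cells had received thapsigargin, COPG1 changed by 0.38 ± 0.18 at 10 and 0.09 ± 0.18 at 100 ng/mL. The adjusted p were 0.978 and 0.765 by edgeR's quasi-likelihood test. Thapsigargin without doxycycline changed COPG1 by 0.53 ± 0.14 (adjusted p = 0.0157 by the same test). The alternative fits were not read for the 16 genes, so how far their calls depend on the fit was not tested.

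Under thapsigargin without doxycycline, 5 of the 16 rose and 0 fell at the same threshold, against 6.45% and 4.74% of all genes. They were the exchange factors GBF1 (0.47 ± 0.10) and ARFGEF2 (0.48 ± 0.11), which load ARF with GTP, the GAP ARFGAP2 (0.55 ± 0.11) and the ER SNAREs STX18 (0.60 ± 0.12) and BNIP1 (0.67 ± 0.13), at which COPI vesicles fuse. Their adjusted p by edgeR's quasi-likelihood test lay between 0.00281 and 0.00621. None of the 16 passed in the other 7 comparisons in edgeR. In those, the numbers with an unadjusted p below 0.05 were 2 for 100 against 10 ng/mL with vehicle, 5 and 2 for thapsigargin at 10 and 100 ng/mL, 0 and 5 for induction to 10 and 100 ng/mL with thapsigargin, and 0 and 6 for the interactions. The shares of all genes were 16.1%, 24.7% and 27.0%, 4.22% and 35.6%, and 4.47% and 24.7%.

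Several of the 10 genes overlap others in GENCODE 29 (GRCh38), and the library kit marked strand while the strand setting of the counts is not given in the sources used here. COPE (chr19:18899514-18919397) shares 12385 bases with the same-strand gene AC002985.1, COPZ1 (chr12:54301202-54351849) shares 43882 with AC078778.2, and ARFGAP3 (chr22:42796502-42858106) shares 22695 with PACSIN2. COPB1 (chr11:14443440-14500027) shares 6245 bases with AC018523.2. ARF4 (chr3:57571363-57598220) overlaps ARF4-AS1 on the other strand by 506 bases. Protein-coding genes on the other strand overlap COPB2 (MRPS22, 1624 bases), ARCN1 (IFT46, 581) and COPA (NCSTN, 129). ARF1 has 3 and ARF4 has 4 annotated pseudogenes, so reads that could have been split among copies make their levels less certain.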

How the data were processed

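The authors aligned RNA-Seq reads with STAR to hg38, per the submitters' processing notes, and deposited read counts, not normalized, by gene symbol for 18 libraries in 6 groups of 3. Library totals were 14876416 to 24652240. The aligner version, annotation and strand setting are not given in the sources used here. Groups and replicate numbers came from the sample labels. Counting intervals were not needed at 1128 or more reads per member, and the spread between libraries set the precision.

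Genes were kept by filterByExpr (minimum count 10), scaled by TMM and tested across all genes with edgeR 4.0.16 (glmQLFit, glmQLFTest) in R 4.3.3. Adjusted p are Benjamini-Hochberg values over all genes tested, called below 0.01, and each fit used only the groups compared. Interactions used 4 groups. SE was taken from each log2 fold change and its F statistic (their ratio, with the root of F). CPM were scaled by TMM over all 18 libraries. Alternatives were DESeq2 1.42.0, its size factors, library totals, no filter, a replicate block, all groups in 1 fit, an adjusted p of 0.05, each library left out and, added after seeing the data, removal of each library's GC and length trend (lowess, span 0.3) through offsets. GC and length were available for 92.9% of genes over all libraries and for all members. Same-numbered replicates correlated above 0.1 in all 3 pairs only for 10 against 0 ng/mL with thapsigargin. Replicates of a group differed by 6.99 to 60.2 times the sampling noise (chi-square per degree of freedom), so each counted as 1 sample.

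The fits were tested on simulated counts with known changes. For 100 against 0 ng/mL with vehicle, 30.3% of 1.5-fold and 80.8% of 2-fold changes passed the threshold. With a GC trend simulated and removed, the shares were 24.2% and 83.8%. The interaction test at 100 ng/mL recovered 0% of 1.5-fold and 1% of 2-fold changes. The members, the other pathway genes and the tests were chosen with earlier results of these data known. The rule named all 10 members, any of 17 other pathway genes past the threshold (a further listed gene is not reported here), ERN2, HSPA5 and DDIT3 as label checks, and the 3 genes nearest the member of widest range. The values given for COPG2, COPZ2, ARF3, ARF5 and ARF6 are outside it and were chosen after they were seen. DDIT3 rose with thapsigargin by 3.96, 3.56 and 2.56 on the log2 scale at 0, 10 and 100 ng/mL.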

Additional observations from a re-analysis of the deposited data

How the results depend on the processing

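The number of the 10 genes past an adjusted p of 0.01 changed with the fit in 8 of the 10 comparisons. For 10 against 0 ng/mL with vehicle (0 genes) it was 3 in DESeq2 and without the low-count filter, where 0.738% and 0.781% of all genes were called higher. It was 2 with the replicate block, at an adjusted p of 0.05 and with the GC and length trend removed (0.241%, 0.366% and 0.352% of all genes higher). It ran from 0 to 4 when 1 library was left out. For 100 against 0 ng/mL with vehicle (3 genes) it was 7 in DESeq2 and at 0.05 (1.95% and 3.12% of all genes higher). It was 6 with library totals and with no filter (1.25% and 1.20%) and 9 with the GC and length trend removed (4.17%). It was 0 with the replicate block and with all groups in 1 fit (0.318% and 0.679%). With 1 library left out it was 0 to 4 (0.480% to 1.47%). The replicate block gave 2 for 100 against 10 ng/mL with vehicle (ARF4 and ARFGAP3, higher), 1 for thapsigargin without doxycycline (COPZ1, lower) and 1 for thapsigargin at 10 ng/mL (COPB1, higher). In these comparisons the replicates shared only a number, and the block called 0.701% of all genes higher, 12.0% lower and 13.4% higher, respectively. The block gave 6, and 5 with the GC and length trend removed, for 10 against 0 ng/mL with thapsigargin. There the pairing was inferred from these data. For 100 against 0 ng/mL with thapsigargin the number was 1 at 0.05, with all groups in 1 fit and with the GC and length trend removed. In those fits 7.20%, 3.97% and 7.23% of all genes were called higher. With 1 library left out it was 0 to 4 (13.5% of all genes higher where it was 4). For thapsigargin at 100 ng/mL it was 0 to 1 (7.84% of all genes lower where it was 1). The block changed no other count. RLE size factors changed none. The causes were not tested.

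Of 1430 alternative values of the members' log2 fold changes, 1282 kept direction and side of the threshold, 56 passed it newly, 16 no longer passed and 76 changed sign. Those that changed sign belonged to 29 results, none of them called and none larger than 0.28 in size. With the GC and length trend removed, the values that changed sign were, for 10 against 0 ng/mL with vehicle, ARCN1 0.16. For 100 against 10 they were COPE 0.12 and ARFGAP1 0.18. For thapsigargin they were COPE 0.064 at 10 ng/mL and COPB1 -0.0094, ARF4 -0.097 and ARFGAP1 0.10 at 100 ng/mL. For 100 against 0 ng/mL with thapsigargin it was ARF1 0.038. For the interaction at 10 ng/mL they were COPB2 -0.028, ARCN1 -0.014, ARF4 -0.18 and ARFGAP3 -0.094, and at 100 ng/mL COPB2 -0.0097 and ARF4 -0.34. ARFGAP1 was 0.0031 for 100 against 10 ng/mL in DESeq2 and with RLE size factors and 0.014 with library totals, and for thapsigargin at 10 ng/mL -0.0045, -0.0046, -0.0020 and -0.0018 in DESeq2, with RLE size factors, without the filter and with all groups in 1 fit. Library totals gave -0.051 for COPA under thapsigargin at 100 ng/mL, -0.0017 for ARFGAP3 in the interaction at 10 ng/mL and -0.10 for ARF4 in that at 100 ng/mL, and 1 fit of all groups gave -0.028 for COPA and -0.039 for ARF4 in the same comparisons.

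With 1 library left out, the ranges that crossed 0 were, for 10 against 0 ng/mL with vehicle, COPB2 -0.043 to 0.12 and ARCN1 -0.15 to 0.033. For 100 against 10 they were COPE -0.28 to 0.10 and ARFGAP1 -0.13 to 0.082. For thapsigargin without doxycycline they were COPB1 -0.29 to 0.15, COPB2 -0.13 to 0.15, COPE -0.0068 to 0.18, ARCN1 -0.10 to 0.26 and ARF4 -0.15 to 0.35. At 10 ng/mL they were ARF1 -0.21 to 0.034 and ARFGAP1 -0.12 to 0.12, and at 100 ng/mL COPA -0.044 to 0.076. For 10 against 0 ng/mL with thapsigargin they were COPB1 -0.11 to 0.32 and ARCN1 -0.047 to 0.30, and for 100 against 0 COPB1 -0.013 to 0.44, ARF1 -0.17 to 0.090 and ARFGAP1 -0.085 to 0.18. For the interaction at 10 ng/mL they were COPA -0.18 to 0.075, ARCN1 -0.0050 to 0.34, ARF4 -0.17 to 0.35 and ARFGAP3 -0.18 to 0.31, and at 100 ng/mL ARF4 -0.16 to 0.36 and ARFGAP3 -0.29 to 0.16. Of 120 alternative group levels, 119 moved by less than 1 SD, the exception being COPZ1 with thapsigargin at 100 ng/mL under library totals. Depth did not limit the members, each with 1128 or more reads per library. Over all genes, the number called ran, across the fits on every library, from 3 to 623 (main 28) for 10 against 0 and 750 to 2175 (1203) for 100 against 0 ng/mL with vehicle, 290 to 1224 (356) for 100 against 10, 1273 to 3571 (1611), 188 to 3620 (212) and 4 to 941 (29) for thapsigargin at 0, 10 and 100 ng/mL, 0 to 564 (0) and 1390 to 3018 (1512) for the inductions with thapsigargin, and 0 to 3 (0) and 3 to 341 (6) for the interactions.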
